A study of Rattus norvegicus with 30 samples.

Results

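The genes described here encode the proteins of the cytosolic ribosome, the particle that translates messenger RNA. They were chosen by name: protein-coding rows whose symbol is that of a large-subunit protein (Rpl and a number, Rplp0, Rplp1 or Rplp2) or a small-subunit protein (Rps and a number, or Rpsa), leaving out the Rps6k kinases. No measured value entered the choice. The rule found 87 of the 35224 genes in the table, 52 of the large and 35 of the small subunit, under 81 symbols, because 4 symbols have more than 1 row. Of these, 84 passed the filter on low counts, among 17571 genes tested. Rpl10a and Rpl23a are listed at 0 in every library, and Rpl30l1 reached at most 2 counts. Of 80 proteins of the mammalian ribosome, 69 have a row under this rule. The other 11, among them Rpl22, Rpl35a, Rps14, Rps26, Fau and Rack1, have none by these names, and Fau and Rack1 are described beside the members.

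The study sequenced RNA from lungs of newborn rats (Rattus norvegicus) in a rat model of bronchopulmonary dysplasia, a lasting lung disorder of infants born early who needed oxygen. Pups breathed either 85% oxygen, begun within 1 day of birth, or 21% oxygen (room air), and lungs without the trachea were taken at postnatal day 1, 3, 7, 10 or 14. Nursing dams were swapped daily between the arms, and the labels give no strain, sex or other treatment. The 10 groups hold 3 libraries each, 30 in all, and the labels speak of 12 rats per arm for 15 libraries per arm, so not every library can be a separate animal unless that number is wrong. The p-values thus cover the spread among libraries of a group, which may be technical.

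Total counts ran from 14951463 to 18074590 (median 16069831), and mitochondrial genes took 2.65% to 19.1% of them. Surfactant genes and other markers of alveolar type 2 cells were abundant, with summed levels of 20122 to 25293 CPM (counts scaled to a common library total) in the 21% libraries of day 1 alone. The oxygen labels, however, go against genes that hyperoxia is known to raise. Cdkn1a, which encodes the p53-induced cell cycle inhibitor p21, stood at 25.3, 29.0 and 34.0 CPM in the libraries labelled 85% at day 14 and at 382, 462 and 447 CPM in those labelled 21%. The stress cytokine Gdf15 differed the same way from day 7 and the antioxidant enzyme gene Nqo1 at days 1, 3, 10 and 14. The titles of the libraries labelled 85% begin with the letter A and those of the libraries labelled 21% with the letter O. Whether the labels were exchanged was not tested. The groups are therefore called 85%-labelled and 21%-labelled throughout, and every direction between arms rests on the labels.

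A ribosome consists of ribosomal RNA and a copy of nearly every protein, so cells make these proteins in matched amounts. Most mammalian ribosomal protein messages start with a cytidine followed by a run of pyrimidines, the terminal oligopyrimidine (TOP) tract, through which mTOR and Larp1 control their translation together. Growth and division raise ribosome production, and in human and mouse cells Rpl5 and Rpl11, when not built into a ribosome, bind Mdm2 and so stabilise p53. In the newborn lung, alveoli form by rapid division of epithelial, mesenchymal and endothelial cells during the first weeks.

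Promoter sequence was available from RefSeq (build GRCr8) for 61 of the 81 symbols, in 62 entries. The windows printed here run from 30 bases before to 20 bases after the annotated start. Most of them are shown because they hold letters that many members share. Those of Rps27l and Rpl7l1, described further on, lack these letters, as do 32 of the 62 entries in all. Capitals mark the hexamer CTTTCC, the hexamer that reads CTTTTC and the hexamer that reads CTCTTT, all on the gene's strand. The 3 motifs were chosen after looking at the windows, and overlapping hits are joined.
Rplp1 (chr8:71290853-71290902, minus strand): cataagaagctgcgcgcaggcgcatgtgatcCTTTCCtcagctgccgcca
Rpl13 (chr19:68062484-68062533, plus strand): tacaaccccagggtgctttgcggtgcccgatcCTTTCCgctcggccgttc
Rpl35 (chr3:43165902-43165951, minus strand): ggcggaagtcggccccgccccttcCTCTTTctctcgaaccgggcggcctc
Rpl31 (chr9:49143081-49143130, plus strand): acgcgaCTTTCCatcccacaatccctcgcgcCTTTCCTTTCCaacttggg
Rps27 (chr2:177964587-177964636, minus strand): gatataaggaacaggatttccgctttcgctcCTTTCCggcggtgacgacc
Rps27l (chr8:76443628-76443677, plus strand): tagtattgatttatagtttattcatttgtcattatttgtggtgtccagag
Rpl7l1 (chr9:21695688-21695737, plus strand): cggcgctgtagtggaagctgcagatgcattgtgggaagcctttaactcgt
At least 1 of the 3 hexamers was found on the gene strand in 30 of the 62 entries (48.4%), against 1872 of 33469 promoter windows of the same length in the whole table (5.6%). On the other strand the share was 4.8% of member entries and 5.5% of all windows. Genes of ribosome assembly held a match in 3 of 30 entries (10.0%). A match is a description of the letters, and the other 32 member entries lack these hexamers in this window. Among the 32 are Rplp0, Rpl14 and Rpl39, whose levels moved with those of the other members.

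Measured per length, Rpl41, the smallest ribosomal protein, had the highest level, 2340 RPKM (CPM divided by gene length in kilobases) over the 30 libraries, and Rplp0, the scaffold of the P stalk, reached 1716. The lowest tested member was Rpl3l, the striated-muscle form of Rpl3, at 0.370 on that scale. The members moved together from library to library. The correlation of a member's log2 CPM with the mean of the other members had a median of 0.963 over the 30 libraries, which share the same depth scaling, with a range of -0.695 to 0.993. The lowest value was that of Rpl7l1, and others well under the median were Rpl39l (0.224), the chromosome 3 copy of Rpl21 (0.230), Rplp2 (0.346), Rps16 (0.348), Rpl10l (0.357), Rpl3l (0.381), Rps27l (0.476) and Rps6 (0.505).

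Ribosomal protein genes have many processed copies, and for 40 of 77 member proteins the table holds further rows of the same protein. For L10A and L23A, whose member rows are at 0, all counts lie in such other rows. The share is 83.4% for L8, 79.1% for P2, 43.0% for S12, 42.8% for L7A, 32.7% for L30 and 26.0% for S2. Reads may have been split unevenly between copies, so single values of these proteins are uncertain. Rplp2, for example, jumped between 2.11 and 203 CPM among libraries. Copies that are both members were uneven too. In the 21%-labelled libraries of day 14 Rps19 stood at 165, 73.6 and 343 RPKM and its copy Rps19l2 at 274, 266 and 138. Further, 28 members overlap a small nucleolar RNA gene and 10 overlap another protein-coding gene.

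Added up, the members took 2.45% to 6.70% of all counts in a library (median 3.94%). In the 85%-labelled arm the share was 5.62%, 5.16% and 6.43% at day 1, 5.39%, 5.22% and 6.14% at day 3, 4.18%, 5.40% and 2.91% at day 7, 2.77%, 3.98% and 3.65% at day 10, and 2.77%, 2.83% and 2.45% at day 14. In the 21%-labelled arm it was 4.43%, 3.90% and 3.78% at day 1, 5.48%, 6.02% and 6.70% at day 3, 3.03%, 3.08% and 2.86% at day 7, 4.10%, 5.67% and 2.98% at day 10, and 3.23%, 2.47% and 3.06% at day 14. All 3 libraries labelled 85% lay above all 3 labelled 21% at day 1, and the groups overlapped at days 3, 7, 10 and 14. Means at day 1 were 5.73% ± 0.643 and 4.04% ± 0.346 (SD, n = 3 each), and with mitochondrial counts taken out of the total 6.55% ± 0.971 and 4.16% ± 0.361. The libraries of a group were uneven at days 7 and 10: of the 84 tested members, 38, 77 and 4 lay above their own mean over all 30 libraries in the 85%-labelled libraries of day 7, and 32, 79 and 6 in the 21%-labelled libraries of day 10.

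**Figure D1:**
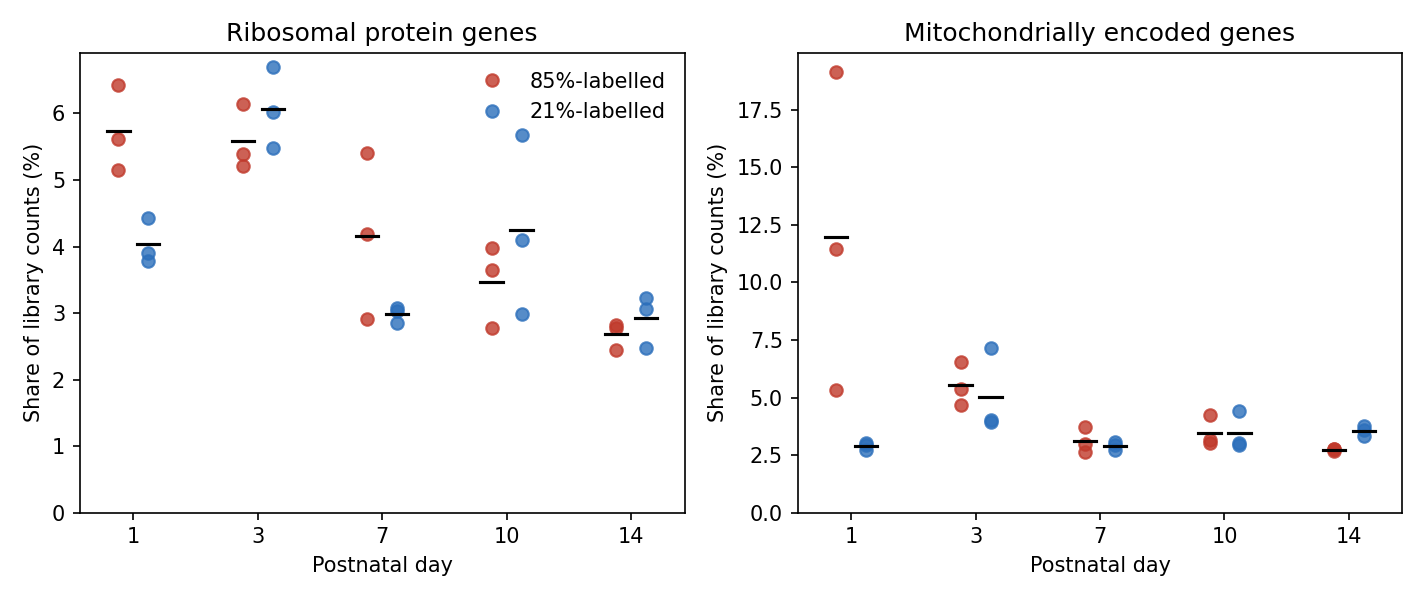
Share of all counts (vertical axes, percent) taken by the 87 ribosomal protein genes (left) and by mitochondrially encoded genes (right) in each library, by postnatal day (horizontal axis) and oxygen label; points are libraries and black bars are group means. The ribosomal share of the 85%-labelled libraries lies above that of the 21%-labelled ones at day 1 (5.16% to 6.43% against 3.78% to 4.43%), as does the mitochondrial share (5.31% to 19.1% against 2.71% to 3.03%).

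Over the 2 weeks the ribosomal protein messages of the 85%-labelled arm fell almost as one. Between day 1 and day 14, 71 of 84 members fell and 1 rose (Rpl7l1), with a median log2 difference of -1.28, in a comparison in which 26% of all genes tested were called lower and 51.1% called in either direction. A gene is called where edgeR's quasi-likelihood test gives a Benjamini-Hochberg adjusted p under 0.05 over all genes and the log2 difference is at least 0.5 in size. In 69 members every day 14 library lay below every day 1 library, against 29.9% of all genes. The fall took in both subunits, 40 of 49 large-subunit and 31 of 35 small-subunit members. The mitochondrial share of this arm was 19.1%, 5.31% and 11.5% at day 1 and 2.69% to 2.77% at day 14. With that share as a covariate 19 members were called, a count given without the share of all genes. Over the same days 5 of 6 alveolar type 2 markers fell (summed levels 23432 to 50315 and then 9106 to 10749 CPM), as did all 6 markers of dividing cells (501 to 739 and then 230 to 295 CPM), and the 3112 genes outside the family no longer than the member at the 75th percentile of length had a median of -0.76. The part of these in the fall was not tested.

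Rpl35, a protein of the exit tunnel rim where the new chain leaves the ribosome, stood at 2445, 884 and 1911 CPM at day 1 and at 393, 395 and 319 CPM at day 14, with no overlap. Its log2 difference was -2.24 (SE 0.34, adjusted p = 2.75e-05). Rpl31, another rim protein, fell by 2.14 (SE 0.33, adjusted p = 3.26e-05). Among members with a mean of at least 3 on the log2 CPM scale, Rps10l1, a copy of the small-subunit gene Rps10, fell most, by 2.68 (SE 0.35, adjusted p = 8.82e-06). Rpl41 fell by 1.22 (SE 0.27, adjusted p = 0.00062).

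In the 21%-labelled arm the end points differed less. Between day 1 and day 14, 7 members fell and 1 rose (Rps27l), where 10.1% of all genes were called lower and 19.1% called in all, and the median was -0.41. Leaving out any 1 library of either day left 1 to 3 calls, so the 8 calls rest on every library. In 54 members all day 14 libraries were nonetheless below all day 1 libraries, against 25.2% of all genes.

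Between these end points the 21%-labelled arm rose and fell. From day 1 to day 3, 41 members rose and none fell, with a median of 0.68, where 12.7% of all genes were called higher and 24.4% called in all. From day 3 to day 7, 72 fell and none rose, with a median of -1.09, where 16.4% of all genes were called lower and 33.5% called in all. In 75 members every day 7 library lay below every day 3 library, against 26.6% of all genes. The fall involved 41 of 49 large-subunit and 31 of 35 small-subunit members, and leaving out any 1 library kept the count between 61 and 71. The rise was less stable, since it came to 23, 3 and 6 members without the first, the second and the third library of day 1 and to 16 and 4 without the second and the third library of day 3. Both comparisons were added after seeing the library values. Mitochondrial shares were 2.71% to 3.03% at day 1, 3.95% to 7.14% at day 3 and 2.71% to 3.07% at day 7, and the median of the 3112 short genes outside the family was 0.45 for the first step and -0.65 for the second. Of the alveolar type 2 markers, 2 of 6 rose and 1 fell in the first step and 5 fell in the second (summed levels 20122 to 25293, 20179 to 28818 and 9127 to 12672 CPM on the 3 days), and 5 of 7 lymphocyte markers rose in the first (6.14 to 12.9, then 24.4 to 33.3 CPM). Markers of dividing cells moved in part with the members, 5 of 6 rising from day 1 to day 3, with summed levels of 267 to 327 CPM at day 1, 372 to 794 at day 3 and 596 to 776 at day 7, and none called between day 3 and day 7. Their part in the members' values was not tested, and in whole lung fewer cells of a type and less of the message per cell cannot be told apart.

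Rplp0 shows the course in numbers. It stood at 2195, 2015 and 1935 CPM in the 21%-labelled libraries of day 1, at 2294, 2443 and 2944 at day 3 and at 1361, 1386 and 1248 at day 7. Day 3 lay above both neighbours without overlap, and the fall to day 7 was -0.94 (SE 0.17, adjusted p = 0.00154). Rps19, whose human counterpart is the gene most often mutated in Diamond-Blackfan anaemia, fell by 2.29 over the same days (SE 0.56, adjusted p = 0.00464), after a rise of 1.62 (SE 0.55, adjusted p = 0.0315). All 10 listed members linked to that anaemia fell between day 3 and day 7, and all 10 fell between day 1 and day 14 in the 85%-labelled arm. So did most of the 84 tested members in both comparisons, where 16.4% and 26% of all genes were called lower.

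Between the oxygen labels, day 1 gave by far the most calls among members. At day 1, 51 of 84 members were higher in 85%-labelled lungs and 1 (Rpl7l1) was lower, where 20.6% of all genes were called higher, 20.8% lower and 41.4% in all. The members' median log2 difference was 0.70, against 0.03 over all genes tested. In 61 members every 85%-labelled library was above every 21%-labelled library, against 26% of all genes. Large-subunit genes gave 29 higher of 49 and small-subunit genes 22 of 35, and without the second 21%-labelled library 33 members were called in all.

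Library composition differed as well at day 1. Mitochondrial genes took 19.1%, 5.31% and 11.5% of the counts of the 85%-labelled libraries, against 2.71% to 3.03% for the 21% label, and no member was called with that share as a covariate (median 0.27) or without the libraries above 6% (median 0.42). The latter leaves 1 library in the 85%-labelled group, assumed to vary like the other groups, so the loss of calls there says little. The mitochondrial share did not overlap between the labels at day 1, so the covariate and the label are hard to tell apart. How many of all genes kept a call with the covariate is not given here, so its loss of calls is not read as particular to the members. Short genes were higher too: the median was 0.50 over the 3112 genes outside the family no longer than the member at the 75th percentile of length, and 31 members were called with a gene-length correction, as with unscaled library totals. Markers of dividing cells were higher in 5 of 6 (summed levels 501 to 739 against 267 to 327 CPM) and those of lymphocytes in 5 of 7 (17.9 to 27.5 against 6.14 to 12.9 CPM), where 20.6% of all genes were called higher. Summed alveolar type 2 markers stood at 50315, 23432 and 41995 CPM in the 85%-labelled libraries, against 20122 to 25293 CPM for the 21% label. The part of these in the members' values was not tested.

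At day 3 no member was called either way, where 0.393% of all genes were, and the median was 0.01. The edgeR test gave 3 members at an unadjusted p under 0.05, and DESeq2 called 1, counts given without the share of all genes. At day 7 the median was 0.45 and 79 of 84 members had a positive difference, against 51.7% of all genes. None of the members was called by edgeR or DESeq2, where edgeR called 0.0854% of all genes. The edgeR test gave 30 at an unadjusted p under 0.05. Without the third 85%-labelled library of that day 18 members were called, all higher in the 85%-labelled arm. The shares of all genes under those rules are not given here, so neither count is read as a result about the members. Groups overlapped in 78 members at day 7, a count given without the share of all genes. The 3112 short genes outside the family had a median of 0.26.

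At day 10 and day 14 the members' median was negative. At day 10 only 7 members had a positive difference, against 49.5% of all genes, and the median was -0.36. Groups overlapped in 82 members, again without the share of all genes beside the count. Rps27l alone was called lower, where 1.18% of all genes were called lower and 2.93% called in all. At day 14 the median was -0.20 and 13 members had a positive difference, against 50.7% of all genes. Rps27l and Rps2 were lower and Rpl3l was higher, where 10.8% of all genes were called lower and 21.2% in all. In 15 members every 85%-labelled library was below every 21%-labelled one, against 25.1% of all genes. The 3112 short genes outside the family had medians of -0.11 at day 10 and -0.12 at day 14.

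Averaged over the 5 days, 3 members were called higher (Rps4y2, Rpl10l and Rpl3l) and 1 lower (Rpl7l1), where 13.3% of all genes were called. The median was 0.15. Rps4y2, a copy of the small-subunit gene Rps4, differed by 0.62 (SE 0.13, adjusted p = 0.000991), with 109, 59.0 and 93.2 CPM in the 85%-labelled libraries of day 1 and 42.0, 44.7 and 53.3 in the 21%-labelled ones. Rpl10l, a retrogene of Rpl10 known for its testis expression in mouse, differed by 0.71 (SE 0.19, adjusted p = 0.00937).

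**Figure D2:**
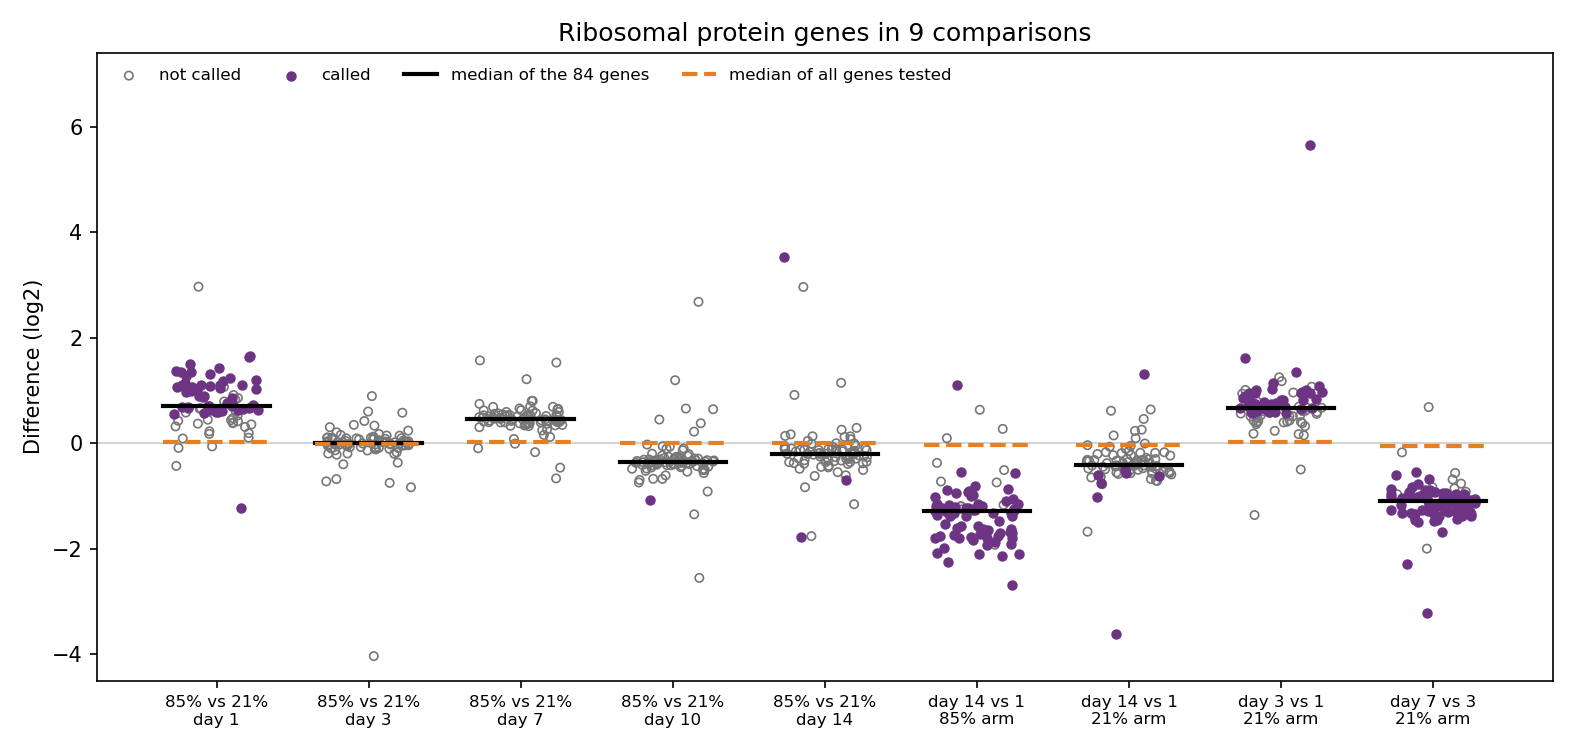
Log2 differences of the 84 tested ribosomal protein genes (vertical axis) in 9 comparisons (horizontal axis); each point is a gene, filled where called, and the black and dashed lines mark the medians of the members and of all genes tested. Members lie mostly above 0 at day 1 (median 0.70) and mostly below it in the 85%-labelled fall from day 1 to day 14 (median -1.28) and the 21%-labelled fall from day 3 to day 7 (median -1.09).

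The change from day 1 to day 14 differed between the arms in 48 members, all of them more negative in the 85%-labelled arm, where 22.3% of all genes were called that way and 44.3% in all (median -0.94). A test of any change in the label difference over the 5 days called 42 members, where 37.6% of all genes were called. The mitochondrial covariate left 3 and 4 members, and in the test over days 19 members were called without the second 21%-labelled library of day 1, 21 without the third, and 23 and 21 without the first and the third 85%-labelled library of that day. Shares of all genes under these alternatives are not given here.

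The P stalk recruits the translation factors. Rplp1 stood at 1032, 861 and 1486 CPM in the 85%-labelled libraries of day 1 and at 656, 602 and 568 in the 21%-labelled ones. At day 14 it stood at 395, 388 and 333 against 582, 441 and 538 CPM, so that the order of the arms was opposite on the 2 days, without overlap on either. The day 1 difference was 0.89 (SE 0.23, adjusted p = 0.00404) and the difference in change -1.37 (SE 0.33, adjusted p = 0.00211). Rplp0 differed by 0.36 at day 1 (SE 0.17, adjusted p = 0.0914) and fell by 1.15 in the 85%-labelled arm (SE 0.18, adjusted p = 3.12e-05). Rplp2 is too uneven to read alone, but with all P2 rows pooled, P2 differed by 0.97 at day 1 (SE 0.29, adjusted p = 0.00885) and by -1.82 between day 3 and day 7 of the 21%-labelled arm (SE 0.29, adjusted p = 0.000904).

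Rpl5 and Rpl11 carry 5S ribosomal RNA into the large subunit, and Rpl23 also binds Mdm2 in human cells. Rpl11 was higher at day 1 (0.56, SE 0.22, adjusted p = 0.0382), as was Rpl23 (0.61, SE 0.22, adjusted p = 0.0297), while Rpl5 differed by 0.32 (SE 0.20, adjusted p = 0.192). All 3 fell between day 1 and day 14 in the 85%-labelled arm and between day 3 and day 7 in the 21%-labelled arm. Around the exit tunnel, 5 of 6 rim genes were higher at day 1, where most members and 20.6% of all genes were called higher. Among them was Rpl35, which stood at 597, 538 and 547 CPM in the 21%-labelled libraries, all below the 85%-labelled ones (1.64, SE 0.33, adjusted p = 0.000884). Rpl39, a small protein inside the tunnel, was higher by 1.43 (SE 0.33, adjusted p = 0.00175). Rpl30, which in yeast binds its own message, and Rpl14 were higher by 1.66 (SE 0.51, adjusted p = 0.0107) and 1.5 (SE 0.33, adjusted p = 0.00143). With all L30 rows pooled, the L30 difference was 1.15 (SE 0.29, adjusted p = 0.00334).

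Rpl3 and Rpl10, which sit near the catalytic centre, had small differences at day 1, as had other large-subunit genes. Rpl9, for example, stood at 350, 688 and 711 CPM in the 85%-labelled libraries and at 678, 602 and 546 in the 21%-labelled ones. Rpl3 differed by 0.10 at day 1 and was not called. It fell between day 1 and day 14 by 0.56 in the 85%-labelled arm (SE 0.15, adjusted p = 0.00349) and by 0.50 in the 21%-labelled arm (SE 0.15, adjusted p = 0.0198). Rpl10 differed by 0.23 at day 1 (adjusted p = 0.369) and fell by 0.89 in the 85%-labelled arm (SE 0.20, adjusted p = 0.000886).

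In the small subunit, Rpsa, which is also a laminin receptor, was higher at day 1 (0.57, SE 0.19, adjusted p = 0.0168) and fell by 1.17 in the 85%-labelled arm (SE 0.19, adjusted p = 5.35e-05). Rps27, a zinc-finger protein, was higher by 0.60 at day 1 (SE 0.24, adjusted p = 0.0475) and fell by 1.29 (SE 0.25, adjusted p = 0.000202). Rps27a, made as a fusion with ubiquitin, has 2 rows whose counts trade places between libraries. Its chromosome 14 row fell by 1.63 in the 85%-labelled arm (SE 0.40, adjusted p = 0.00167), and its chromosome 5 row differed by -1.19 (adjusted p = 0.0701). Rps6, the substrate of S6 kinase, fell by 1.75 in the same arm (SE 0.69, adjusted p = 0.0339). Its difference in change, -2.36 (adjusted p = 0.0469), rests on the second 21%-labelled library of day 14 at 107 CPM, and was -0.96 (adjusted p = 0.377) without it.

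Rps2, near the entry of the message channel, was the other small-subunit gene lower at day 14. It stood at 368, 391 and 324 CPM in the 85%-labelled libraries and at 631, 494 and 628 in the 21%-labelled ones, without overlap. The difference was -0.69 (SE 0.20, adjusted p = 0.0136), and -0.69 (adjusted p = 0.00503) with all S2 rows pooled. Leaving out the third 85%-labelled library (adjusted p = 0.0579) or the first (0.0621) or the third (0.0533) 21%-labelled library ended the call.

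Among the 7 tested close copies, Rps27l encodes a near copy of Rps27 that p53 induces in human cells. It stood at 69.0, 85.4 and 114 CPM in the 85%-labelled libraries of day 1 and at 58.6, 53.7 and 55.4 in the 21%-labelled ones. At day 10 the values were 53.4, 97.5 and 63.7 against 133, 177 and 142, and at day 14 42.4, 41.4 and 37.2 against 141, 114 and 159 CPM. The 85%-labelled libraries were all higher at day 1 and all lower at days 10 and 14.

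Rps27l differed by 0.68 at day 1 (SE 0.21, adjusted p = 0.0122), by -1.08 at day 10 (SE 0.21, adjusted p = 0.00506) and by -1.78 at day 14 (SE 0.22, adjusted p = 1.65e-06). It rose by 1.30 from day 1 to day 14 in the 21%-labelled arm (SE 0.21, adjusted p = 8.23e-05), where the members' median was -0.41, and it fell by 1.15 in the 85%-labelled arm (SE 0.21, adjusted p = 0.000155). The calls at days 10 and 14, the rise in the 21%-labelled arm and the difference in change (-2.45, SE 0.30, adjusted p = 3.99e-06) held under each alternative run. Rps27, its near copy, differed by -0.12 at day 14 (adjusted p = 0.767).

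Of 6 genes of the p53 axis, 3 were lower in 85%-labelled lungs at day 14 and 1 was higher, where 10.8% of all genes were called lower and 21.2% in all. The p53 target Ccng1 stood at 73.3, 73.5 and 71.8 CPM in the 85%-labelled libraries and at 296, 323 and 311 in the 21%-labelled ones (-2.09, SE 0.19, adjusted p = 2.09e-08). Mdm2, the ubiquitin ligase that degrades p53, stood at 48.5, 49.8 and 53 against 123, 125 and 105 CPM (-1.23, SE 0.18, adjusted p = 1.87e-05). From day 1 to day 14, 4 of the 6 rose in the 21%-labelled arm, where 9.04% of all genes were called higher.

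Rpl7l1, a copy of Rpl7 known from the assembly of large subunits in human cells, went the other way from the family. It stood at 6.63, 49.0 and 14.3 CPM in the 85%-labelled libraries of day 1, at 53.7, 54.2 and 57.7 in the 21%-labelled ones and at 51.3, 50.5 and 48.7 in the 85%-labelled libraries of day 14. The low values are those of the first and the third 85%-labelled libraries, the ones with mitochondrial shares of 19.1% and 11.5%. The day 1 difference was -1.23 (SE 0.41, adjusted p = 0.0164), became 0.33 with the mitochondrial covariate and -0.16 without the libraries above 6%, and lost its call without either of those libraries. At day 14 its 85%-labelled libraries again lay below the 21%-labelled ones, at 61.2, 57.5 and 64.5 CPM.

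Rpl3l was called at day 14 (3.54, SE 1.21, adjusted p = 0.0337) at 0.30, 0.44 and 0.22 CPM in 85%-labelled lungs and 0, 0 and 0.06 in 21%-labelled lungs, levels too low for a fold change to carry weight. Its highest value, 4.32 CPM, was in the first 85%-labelled library of day 10, where skeletal muscle markers summed to 1617 CPM against 3.40 to 12.6 in the other 5 libraries of that day. Rpl22l1, the close copy of Rpl22, behaved like the family, higher by 1.08 at day 1 (SE 0.26, adjusted p = 0.00246) and falling by 1.91 in the 85%-labelled arm (SE 0.27, adjusted p = 1.54e-05). Rpl39l, a copy of Rpl39 known from mouse testis, was called in no comparison.

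**Figure D3:**
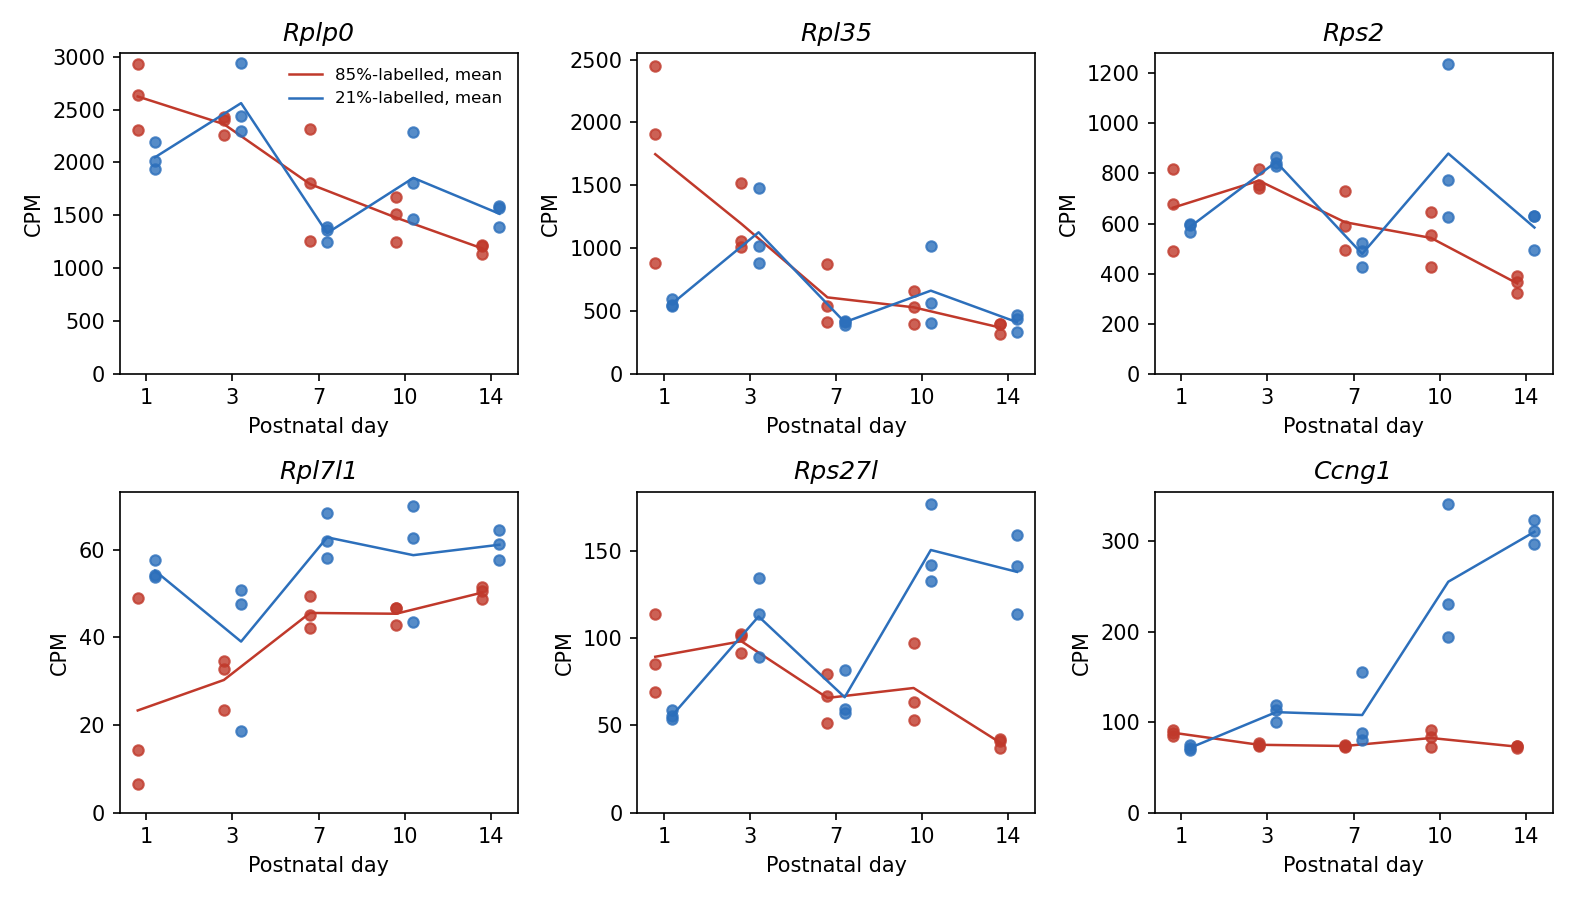
CPM (vertical axes, linear from 0) by postnatal day (horizontal axes) for Rplp0, Rpl35, Rps2, Rpl7l1, Rps27l and the p53 target Ccng1; points are libraries, lines join group means, and colours mark the oxygen label. The low Rpl7l1 points at day 1 are 2 of the 85%-labelled libraries, and Rps27l and Ccng1 end higher in the 21%-labelled arm (114 to 159 against 37.2 to 42.4 CPM for Rps27l at day 14).

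Of the ribosome's proteins outside the naming rule, Rack1, the small-subunit scaffold for kinases, differed by 0.28 at day 1 (adjusted p = 0.167) and fell in the 85%-labelled arm, as did Fau. The 15 translation factors and partners with known or likely TOP messages were mixed, with 6 higher and 5 lower at day 1, where 20.6% and 20.8% of all genes were called. Npm1, a nucleolar chaperone, was higher (0.95, SE 0.24, adjusted p = 0.00296). The elongation factor genes Eef1a1 (-0.72) and Eef2 (-0.74) were called lower, a call that no canonical member had. Larp1, which binds TOP messages, was also lower (-2.27, SE 0.50, adjusted p = 0.00141).

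Genes for making ribosomes are set beside the ribosomal proteins here, with no test between the lists. Of 32 genes of ribosome assembly and RNA processing, 19 were lower in 85%-labelled lungs at day 14 and none was higher (median -0.67), whereas 2 of 84 ribosomal protein genes were lower (median -0.20), where 10.8% of all genes were called lower. In the 21%-labelled arm 17 of the 32 rose from day 1 to day 14 (median 0.58), where the ribosomal protein genes had a median of -0.41 and 9.04% of all genes were called higher. From day 3 to day 7 of that arm 7 fell and 2 rose (median -0.15), where 16.4% of all genes were called lower and 33.5% in all. At day 1, 15 were higher in 85%-labelled lungs (median 0.51), where 20.6% of all genes were called higher. Cell type markers moved too between day 1 and day 14 of the 21%-labelled arm. Summed macrophage markers were at 225 to 235 and then 540 to 770 CPM, and dividing-cell markers at 267 to 327 and then 339 to 468 CPM. Endothelial markers were at 1210 to 1425 and then 625 to 870 CPM. The part of these in the rise of the assembly genes was not tested.

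Nop2, a ribosomal RNA methyltransferase, stood at 23.7, 25.6 and 24.8 CPM in the 85%-labelled libraries of day 14 and at 65, 45.2 and 58.1 in the 21%-labelled ones (-1.18, SE 0.13, adjusted p = 4.4e-07). Bysl, a small-subunit assembly factor, stood at 18.5, 16.9 and 18.7 against 45.4, 28.9 and 37.0 CPM (-1.04, SE 0.17, adjusted p = 9.23e-05). Fbl, the methyltransferase fibrillarin, differed by -0.95 (SE 0.19, adjusted p = 0.000758). Myc, a transcription factor that drives many such genes, stood at 28.5, 27.5 and 25.7 against 83.5, 53 and 92.5 CPM (-1.49, SE 0.20, adjusted p = 4.83e-06), again without overlap. Of 12 genes for transcribing ribosomal RNA, 5 were lower and 1 higher at day 14, where 10.8% of all genes were called lower and 21.2% in all. Macrophage markers were lower in 5 of 6 (summed levels 290 to 317 against 540 to 770 CPM), dividing-cell markers in 2 of 6 (230 to 295 against 339 to 468 CPM), and alveolar type 2 markers in 5 of 6 (9106 to 10749 against 18343 to 20996 CPM). Endothelial markers were higher in 3 of 4 (1793 to 2061 against 625 to 870 CPM) and lymphocyte markers in 5 of 7 (28.0 to 33.0 against 5.88 to 13.7 CPM). Their part in these differences was not tested.

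**Figure D4:**
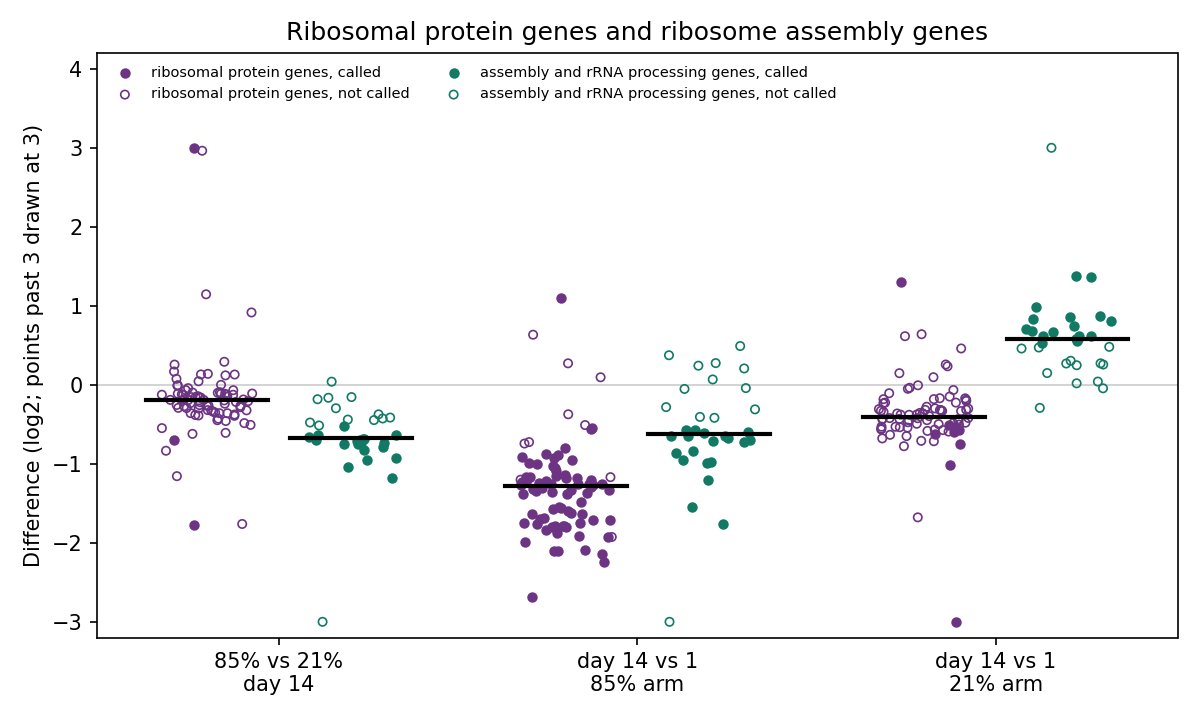
Log2 differences (vertical axis, points past 3 drawn at 3) of ribosomal protein genes and of ribosome assembly genes in 3 comparisons (horizontal axis); each point is a gene, filled where called, and black lines are medians. At day 14 the assembly genes have a median of -0.67 and the ribosomal protein genes of -0.20, and in the 21%-labelled arm from day 1 to day 14 the medians are 0.58 and -0.41.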

How the data were processed

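RNA-seq of rat lung gave a table of raw counts per gene for 30 libraries, deposited by the authors with FPKM values and their own log2 fold changes and p-values, which were not used for any value here. RNA was made into libraries with a SMARTer mRNA-seq kit, per the labels' protocols. Neither aligner nor counter is given in the sources used here, and the submitters' processing notes name the mouse builds GRCm38 and mm10 although the gene identifiers and positions are those of rat. The kit's strand setting is not stated, so reads of overlapping genes cannot be told apart.

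From the counts, edgeR 4.0.16 in R 4.3.3 was fitted once over all 30 libraries (filterByExpr, TMM scaling, 1 mean per group, robust quasi-likelihood, 20 residual degrees of freedom), with Benjamini-Hochberg adjustment over the 17571 genes that passed. Calls needed an adjusted p below 0.05 together with a log2 difference of 0.5 or more in size, which is the series text's own threshold; the test over days had none. SE is the log2 difference over the square root of F. CPM were computed on TMM-scaled library totals, and log2 CPM with a prior count of 2. Depth (14951463 to 18074590 counts) bounds counting error only. The scripts were tested on simulated data.

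Genes named in the text are, per comparison, up to 3 called members with the largest rise and fall among those with a mean log2 CPM of at least 3, the members highest and lowest per length, and a list of members by role; genes outside that rule (Rpl23, Ccng1, Cdkn1a and Gdf15 among them) come from the lists. The members and lists were chosen with earlier results of these data known, and the day 3 and day 7 comparisons within the 21%-labelled arm were added after seeing the data. Alternatives were other scalings, no filter, DESeq2 1.42.0, a mitochondrial covariate, a gene-length offset, the replicate number as a block, libraries left out and pooled copies. A further ribosomal gene that the naming rule leaves out is not reported here.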

Additional observations from a re-analysis of the deposited data

Results flagged for a closer look

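Among members listed by role, the change from day 1 to day 14 differed between the oxygen labels for 8. The test, edgeR's quasi-likelihood test, was of that difference itself (log2 change in the 85%-labelled arm minus that in the 21%-labelled arm). The values were -2.45 for Rps27l (adjusted p = 3.99e-06), -2.36 for Rps6 (0.0469), -2.07 for Rps19 (0.0308) and -1.81 for Rpl39 (0.00323). They were -1.37 for Rplp1 (0.00211), -1.2 for Rpl22l1 (0.0111), -0.84 for Rpsa (0.0143) and -0.71 for Rplp0 (0.0219). The Rps6 value rests on the second 21%-labelled library of day 14, as given above, and was not called without it. Rps19 is uneven beside its copy Rps19l2, so its value is uncertain. Over all members, 48 differed in the change from day 1 to day 14, where 44.3% of all genes were called. In the label difference over the 5 days 42 did, where 37.6% of all genes were called. The mitochondrial share, 5.31% to 19.1% in the 85%-labelled libraries of day 1, moved with these differences, and its part was not tested beyond the covariate. Groups of 3 libraries are too small for a test of single outlying libraries.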

How the results depend on the processing

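Counts of called members are given as the main value and then the alternatives that moved it by over 1.5 times. At day 1, 52 calls became 31 on unscaled library totals, 31 with a gene-length offset and 0 with the mitochondrial covariate or without the libraries above 6% mitochondrial counts. At day 3, 0 became 1 with DESeq2 and 1 without those libraries. At day 10, 1 became 3 with DESeq2, 3 with the covariate, 2 with the length offset and 2 without those libraries. At day 14, 3 became 7 with DESeq2 and 5 with the length offset. The 85%-labelled fall from day 1 to day 14 went from 72 to 19 with the covariate. In the 21%-labelled arm over those days, 8 became 19 on unscaled totals, 3 without the filter, 16 with the covariate and 13 with the length offset. The difference in change went from 48 to 26 on unscaled totals, 3 with the covariate, 26 with the length offset and 2 without the high-mitochondrial libraries. The test over days went from 42 to 4 with the covariate, 27 with the length offset and 5 without those libraries. From day 1 to day 3 in the 21%-labelled arm, 41 became 25 without the filter, 16 with the covariate, 12 with the length offset and 8 without those libraries; from day 3 to day 7, 72 became 42 with the length offset. The cause of these shifts was not tested. The shares of all genes called under each alternative, or with 1 library left out, are not given here, so the shifts are not read as particular to the members. Rpl7l1 changed sign with the covariate, to 0.33 at day 1 and -0.50 from day 1 to day 14 in the 85%-labelled arm.

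Leaving out 1 library at a time gave 33 to 52 calls at day 1, 0 to 1 at day 3, 0 to 18 at day 7, 1 to 3 at day 10, 2 to 4 at day 14, 3 to 6 for the mean over days, 66 to 72 and 1 to 3 for the change from day 1 to day 14 in the 85%- and 21%-labelled arms, 33 to 51 for the difference in change, 19 to 61 for the test over days, 3 to 48 from day 1 to day 3 and 61 to 71 from day 3 to day 7 in the 21%-labelled arm. Pooling all copies of a protein, an alternative added after seeing the data, gave 55 of 77 at day 1 and 71 in the 85%-labelled fall.

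The labels do not say that a replicate number marks anything shared, and the numbers were not taken to pair the libraries over the 5 days: same-numbered pairs correlated at -0.258 to 0.475, with 8 of 15 over 0.1, and 9 of 15 85%-labelled libraries matched their own number best. By day the values were 0.164, 0.126 and 0.008 at day 1, 0.138, 0.107 and 0.303 at day 3, 0.12, 0.1 and 0.133 at day 7, -0.016, 0.475 and -0.258 at day 10 and -0.057, -0.148 and -0.251 at day 14, so a hint of pairing at days 3 and 7 was not seen at days 10 and 14. With the replicate block the 21%-labelled change from day 1 to day 14 had 5 calls instead of 8, and the other counts stayed within 1.5 times of the main ones (52 at day 1, 72 in the 85%-labelled fall).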
